A study of Mus musculus with 8 samples.

Results

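The nuclear genes that encode subunits of the mitochondrial respiratory chain were described across the 8 arrays of a mouse fracture study. Members were all probe sets whose annotation gives exactly 1 gene symbol and whose symbol fits a name pattern for subunits. The patterns were those of complex I (Nduf genes with a, b, c, s or v and a number), complex II (Sdh genes), complex III (Uqcr genes and Cyc1), complex IV (Cox genes) and complex V, the ATP synthase (Atp5 genes). Complexes were assigned by symbol alone, so a subunit named otherwise is left out or counted under the complex of its name. This rule found 164 of 45037 probe sets, for 81 of 18193 genes. Complex I held 72 probe sets of 34 genes, complex II 9 of 4 genes, complex III 17 of 9 genes, complex IV 35 of 17 genes and complex V 31 of 17 genes. Probe sets annotated to several genes were not used here.

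Skeletal stem cells (SSCs) were sorted as positive for CD51 and CD200 and negative for CD45, Ter119, Tie2, 6C3, Thy1 and CD105. They were set against bone, cartilage and stromal progenitors (BCSPs), which lie downstream of SSCs and were sorted as CD51 positive, CD105 positive and negative for the other markers, with no CD200 gate. Both came from femoral fracture calluses of untreated male C57/Bl6 mice (substrain J in the study's methods) aged 10 to 12 weeks, harvested on day 7 per the labels, and the study's methods give a later day. Each of 4 experiments gave 1 SSC and 1 BCSP array from 10000 sorted cells, with no culture, no uninjured bone and no treated group. The study describes the cells as taken from different mice, as many as there were experiments, without tying a mouse to an array.

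The respiratory chain carries electrons from NADH and succinate to oxygen and pumps protons across the inner mitochondrial membrane. Complexes I and II feed electrons in, complex III passes them to cytochrome c, complex IV reduces oxygen, and complex V uses the proton gradient to make ATP. A few core subunits are encoded by mitochondrial DNA and are outside the rule. In the growing skeleton, cartilage cells live at low oxygen and rely largely on glycolysis, while bone forming cells are known to raise their use of mitochondria as they mature.

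The unit of every value was the activity score of Gene Expression Commons. For each probe set the score places an array within the range of a large collection of public mouse arrays, from -100 (lowest) to 100 (highest), with 0 at a threshold between inactive and active. A score below 0 therefore states that a probe set lay in the lower part of its own reference range, not that its transcript was absent, and scores of different probe sets are no amounts of RNA. Differences between arrays are therefore stated in points of the score.

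The arrays carried the profile of skeletal cells. In the list of skeletal genes, Sox9 (the chondrogenic transcription factor) had a mean of 99.9 and Sp7 (an osteoblast factor) 54.9, the highest and lowest genes, and 14 of 17 probe sets were above 0 on all 8 arrays. Eng, which encodes the gate protein CD105, scored -29.4, -43.9, -64.4 and -44.6 on the SSC arrays of experiments 1 to 4, against 50.1, -0.37, 2.67 and -1.02 on the BCSP arrays, with no overlap. The genes of 4 excluded surface proteins, Ptprc (CD45), Enpep (6C3), Thy1 and Tek (Tie2), stayed under 0 throughout at their highest probe sets. Of the lists for macrophages, neutrophils, erythroid cells and lymphocytes, 1 probe set was above 0 on all arrays, that of the T cell gene Cd8a (mean 75.3). The share of all probe sets above 0 ran from 29.0% to 31.0% across arrays. The 9 hybridization control probe sets, which read RNA added before hybridization, had medians of 62.5, -24.2, 32.4 and -8.12 on the SSC arrays and 70.9, -13.4, 41.8 and 3.77 on the BCSP arrays. The gap in score between the 3′ and 5′ control probe sets of actin was 59.6 points on the SSC array and 64.9 points on the BCSP array of experiment 3. It lay between 23.1 and 44.2 points on the other 6 arrays. The same gap for Gapdh was 54.7 points in SSCs and 49.1 in BCSPs of experiment 3, and 21.3 to 71.9 points on the others. Each control probe set has its own reference range, so these gaps are no ratios of signal and do not measure RNA length.

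Scores of the respiratory chain spread widely around the threshold, with means of single probe sets from -91.6 to 80.1. Their median lay above that of all probe sets on most arrays, and they were not uniformly high in any population. Of the 164 probe sets, 22 (13.4%) were above 0 on all 8 arrays, against 16.1% of all probe sets. Another 40 (24.4%) were above 0 on no array, against 49.5% of all probe sets, and 102 were above 0 on 1 to 7 arrays. The median over all members was 5.55, -7.46, -35.8 and -21.7 on the SSC arrays of experiments 1 to 4, and 6.42, 12.5, -33.1 and -4.46 on the BCSP arrays. Over all probe sets the same medians ran from -34.2 to -24.8 on SSC arrays and from -30.9 to -25.2 on BCSP arrays, so the members lay above them on 6 arrays and slightly below them on the 2 arrays of experiment 3. RNA came from sorted bulk cells, in which fewer cells of a type and less RNA per cell cannot be told apart. When each gene was represented by its highest probe set, 19 of 81 genes were above 0 on every array and 16 on none. A list of genes that every cell uses, which includes the member Sdha, also lay around the threshold. Its array medians ran from -16.9 to 4.03 in SSCs and from -21.2 to 1.03 in BCSPs. Of its 23 probe sets, 7 were above 0 on all 8 arrays and 8 on none.

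**Figure D1:**
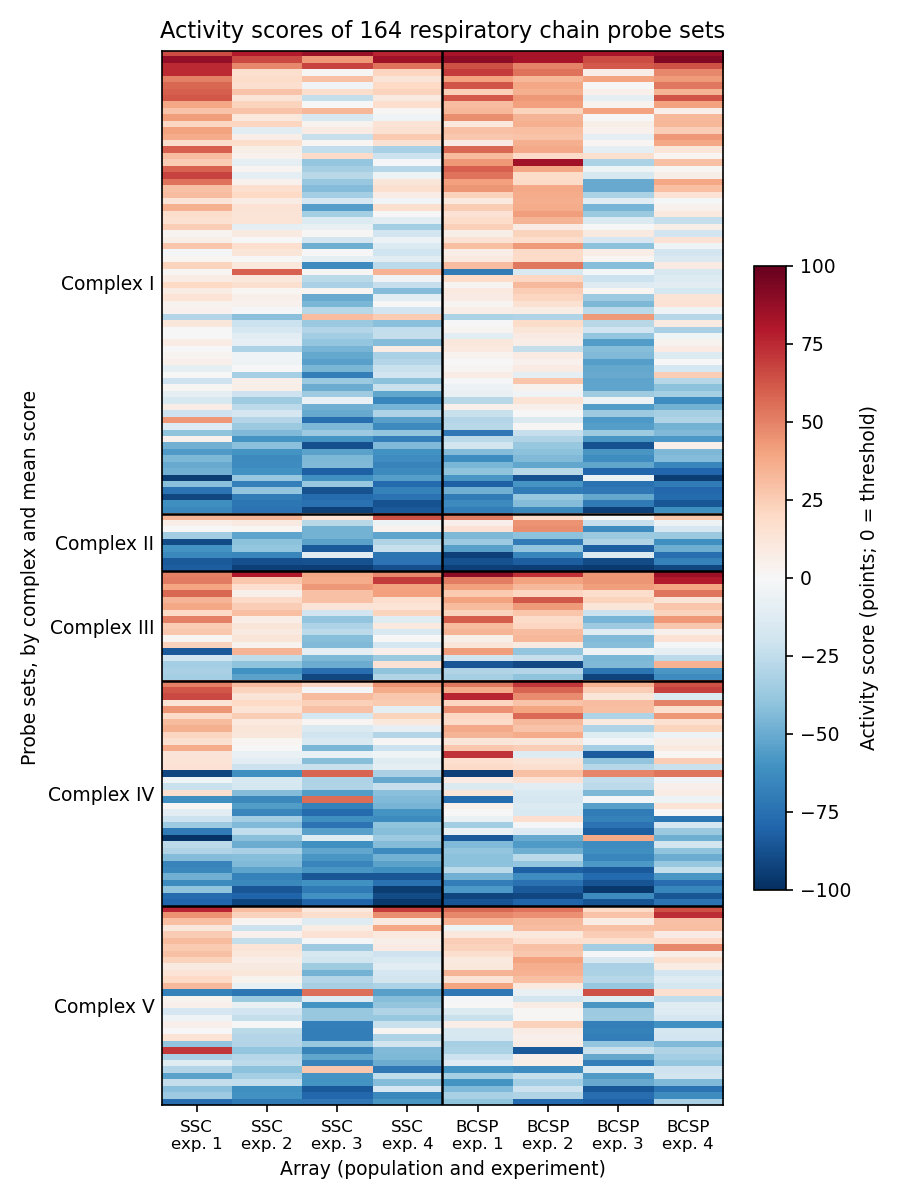
Activity score (colour, in points, white at the threshold of 0) of the 164 member probe sets (rows, grouped by complex and ordered by mean score) on the 4 SSC arrays (left) and the 4 BCSP arrays (right), by experiment. Rows run from red at the top to blue at the bottom of each complex, and the columns of experiment 3 are bluer than the rest in both populations.

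Complex I, the NADH dehydrogenase, had 9 of 72 probe sets above 0 on all 8 arrays and 13 on none. Its array medians were 7.52, 1.17, -34.7 and -19.4 in SSCs and 7.89, 18.8, -29.4 and -0.41 in BCSPs. Its highest probe set was 1458404_at of Ndufb8, an accessory subunit of the membrane arm, at 76.8 ± 8.99 in SSCs and 83.4 ± 1.85 in BCSPs (SD, n = 4 each). Ndufa1, an X-linked accessory subunit needed for assembly of the complex, scored 87.8, 65.7, 43.5 and 84.7 in SSCs, against 89.4, 82.6, 65.5 and 92.4 in BCSPs. It was above 0 on every array, and the groups overlapped. Ndufa3, Ndufa5, Ndufa8, Ndufb6, Ndufs4 and the core subunit Ndufv2 also had a probe set above 0 throughout. The lowest was 1454771_at of Ndufb1, at -78.9 ± 12.3 in SSCs and -72.0 ± 14.6 in BCSPs (SD, n = 4 each).

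Complex II, succinate dehydrogenase, which also works in the citric acid cycle, had the lowest median of the 5 complexes. Its array medians were -59.5, -41.0, -47.4 and -29.9 in SSCs and -44.9, -41.1, -37.4 and -48.7 in BCSPs. All 4 probe sets of Sdha (the flavoprotein that oxidizes succinate) and both of Sdhc (a membrane anchor) were below 0 on all 8 arrays. Probe set 1435986_x_at of Sdhc was the lowest of all members, at -89.5 ± 5.37 in SSCs and -93.7 ± 2.07 in BCSPs (SD, n = 4 each). The single probe set of Sdhb (the iron-sulphur subunit) was above 0 on 4 arrays. Only Sdhd, the other anchor, had a probe set above 0 throughout, 1437489_x_at, with 33.8, 34.3, 15.2 and 63.8 in SSCs against 51.8, 18.2, 0.24 and 27.4 in BCSPs, which overlapped.

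Complex III, the cytochrome bc1 complex, had the highest median, with 25.3, 12.0, -26.4 and 9.60 in SSCs and 31.5, 21.7, -21.7 and 22.2 in BCSPs. It also had the largest share of probe sets above 0 on every array, 6 of 17, which belonged to Uqcr10, Uqcrb, Uqcrc2 and Uqcrq. Uqcrq, a small membrane subunit, had the highest mean through 1437134_at, with 50.7, 79.8, 38.5 and 48.0 in SSCs against 89.6, 73.0, 44.1 and 85.6 in BCSPs. Uqcrb, a ubiquinone-binding subunit, scored 46.4 ± 18.7 in SSCs and 53.7 ± 17.8 in BCSPs (SD, n = 4 each) at 1455997_a_at. Within the same complex the core protein gene Uqcrc1 and the cytochrome c1 gene Cyc1 were below 0 on all arrays, with means over 8 arrays of -54.8 and -50.03.

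Complex IV, cytochrome c oxidase, had 3 of 35 probe sets above 0 on every array, 1 each of Cox5a, Cox6a1 and Cox6b1, and 13 on none. Its array medians were -11.3, -32.7, -42.2 and -40.1 in SSCs, against -0.37, -10.7, -39.3 and -4.94 in BCSPs. Complex V had 3 of 31 on every array, of Atp5j (coupling factor 6), Atp5md (a small protein of the ATP synthase dimer) and Atp5pb (the peripheral stalk subunit b), and 5 on none. Its medians were 4.92, -23.6, -37.7 and -22.2 in SSCs, against -5.05, 7.43, -34.9 and -17.6 in BCSPs. Atp5md was the highest of complex V, with 76.2, 30.7, 10.3 and 69.3 in SSCs and 57.4, 53.9, 19.7 and 63.9 in BCSPs. The lowest was 1443495_at of Atp5j2, at -69.2 ± 7.54 in SSCs and -57.8 ± 25.2 in BCSPs (SD, n = 4 each).

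**Figure D2:**
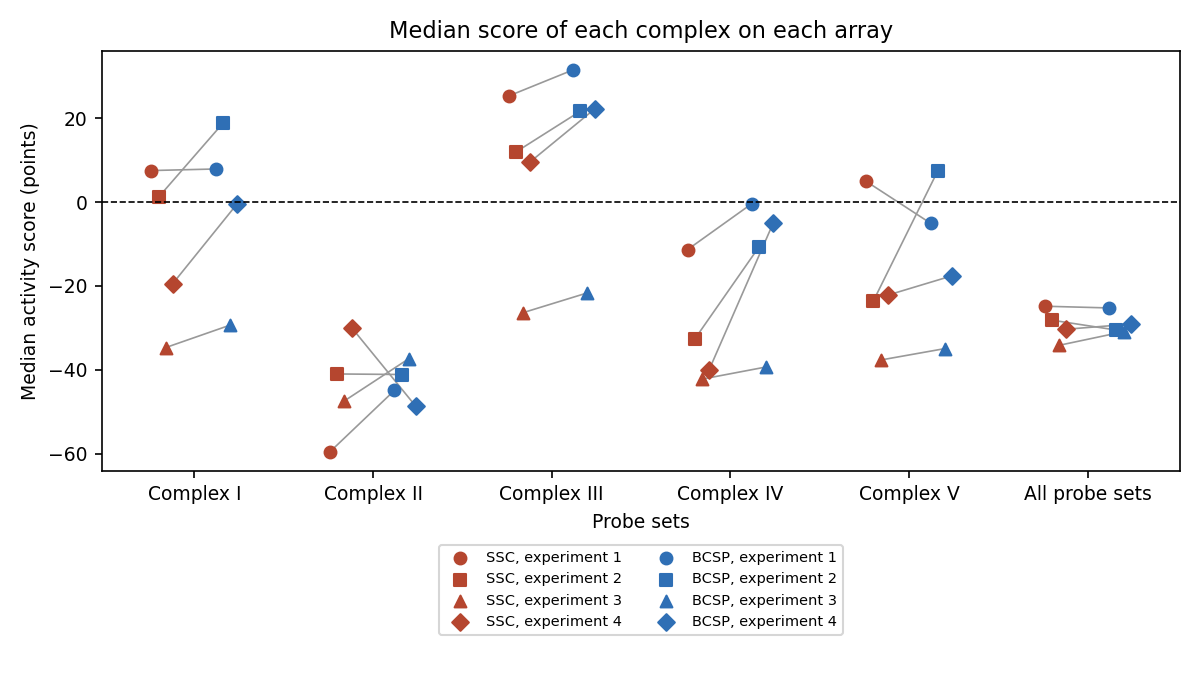
Median activity score (vertical axis, in points) of the probe sets of each complex and of all probe sets, with SSC arrays in red on the left and BCSP arrays in blue on the right, and a line joining the 2 arrays of an experiment (marker shapes). Complex III lay highest of the 5 on every array, complex II lay lowest on 6 of 8 arrays and complex IV on the SSC array of experiment 4 and the BCSP array of experiment 3, and the triangles of experiment 3 lay lowest in both populations for complexes I, III, IV and V.

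The medians of the complexes depended on how probe sets of a gene were combined. With the highest probe set of each gene, the median over 8 arrays was -17.5 for complex II, against -43.0 over all its probe sets, -2.35 for complex IV, against -22.0, and 5.42 for complex V, against -19.9. Complex III stayed highest and complex II lowest under this choice. Without the probe sets that carry a suffix, complex IV, at -44.3, and complex II, at -44.2, were level.

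Paralogous subunits were compared with the tissues in which each form is known. Several complex IV subunits exist in a form used by most tissues and a form of heart and skeletal muscle or testis. Cox6a1, the widely used form, was the highest gene of the complex, with 50.1, 30.5, 20.7 and 45.2 in SSCs against 52.8, 70.9, 35.0 and 64.0 in BCSPs at 1417417_a_at. The other probe set of Cox6a1, 1417418_s_at, averaged 17.3 and was above 0 on 6 arrays. Both probe sets of its muscle paralog Cox6a2 were below 0 on all 8 arrays, at -65.8 ± 6.05 and -76.7 ± 12.2 in SSCs and -76.5 ± 7.26 and -82.9 ± 13.5 in BCSPs (SD, n = 4 each). Cox7a1, the muscle form of subunit 7a, had the lowest mean of complex IV, at -87.1 ± 8.55 in SSCs and -81.7 ± 6.11 in BCSPs (SD, n = 4 each). Its widely used paralog Cox7a2 scored 35.8, 12.3, -14.8 and -8.55 in SSCs against 38.3, 28.3, -30.6 and 22.7 in BCSPs at 1416971_at. The other probe set of Cox7a2, 1416970_a_at, averaged -0.26 and was above 0 on 5 arrays. The related Cox7a2l, which helps to join complexes III and IV, had means over 8 arrays of 26.2, 4.69 and -38.8 at its 3 probe sets.

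Subunit 6b followed the same division. Cox6b1 was above 0 on every array at 1436757_a_at, at 21.0 ± 5.31 in SSCs and 32.7 ± 12.1 in BCSPs (SD, n = 4 each), while its other probe set averaged -17.4. The testis paralog Cox6b2 was below 0 on all arrays, with a mean of -46.1. So was Cox7b2, the testis form of subunit 7b (-56.7), whose widely used form had no probe set among the members. Markers of these other tissues were low in the same arrays. Of 26 probe sets for skeletal muscle genes, 24 stayed below 0 throughout and 0 were above it on all 8 arrays. Array medians ran from -55.4 to -43.4 in SSCs and from -67.9 to -28.1 in BCSPs. All 16 probe sets for testis germ cell genes and all 9 for heart muscle genes were above 0 on no array.

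Subunits 8 and 4 did not divide in this way. Cox8a, the widely used form of subunit 8, was below 0 on every array at all 3 of its probe sets, with means of -50.7, -41.3 and -46.8. The muscle form Cox8b averaged -74.3, and the testis form Cox8c -13.5 and -45.3, so 1 probe set of the testis form lay closer to its own threshold than any of Cox8a did. For subunit 4, Cox4i1 scored 15.8, 1.70, -15.2 and 0.85 in SSCs against 12.4, 11.4, -2.96 and 5.94 in BCSPs, close to the threshold throughout. Cox4i2, its paralog of lung that is also induced at low oxygen, scored 12.8, -6.83, -6.93 and -4.01 in SSCs against 72.0, -13.2, -82.9 and 2.13 in BCSPs. The BCSP arrays therefore held both the highest and the lowest value of Cox4i2, and the spread there (SD 63.6, n = 4) exceeded that in SSCs (SD 9.46, n = 4). In complex V, 3 genes encode the same mature c subunit of the rotor. Atp5g3 had the highest score of these, with 29.7, 2.63, -12.8 and 9.14 in SSCs against 34.6, 32.2, 7.23 and 29.3 in BCSPs. The means of Atp5g1 were -32.4 and -42.3, and those of Atp5g2 -0.96, -30.9 and -34.3.

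**Figure D3:**
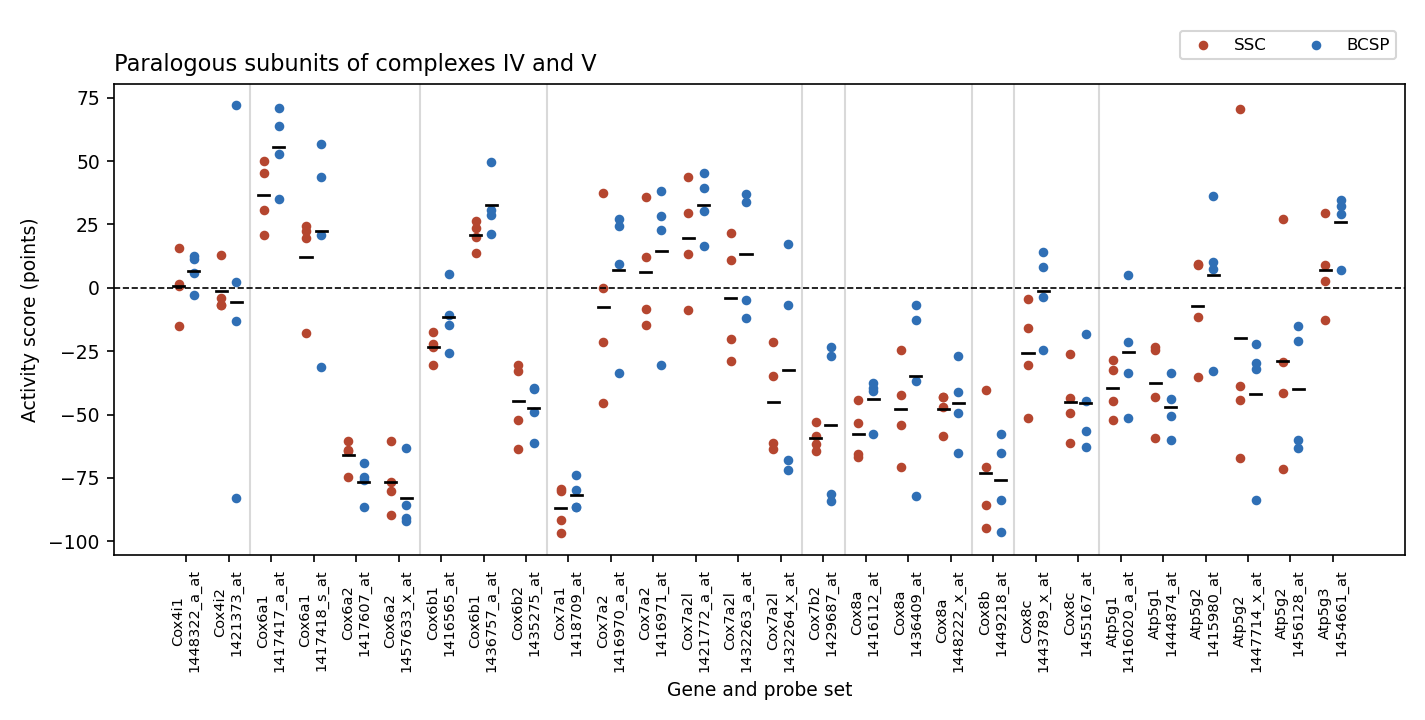
Activity score (vertical axis, in points) of each array for every probe set of the paralogous subunit genes (horizontal axis), with SSC arrays in red on the left, BCSP arrays in blue on the right, and a bar at each mean of 4 arrays. The muscle forms Cox6a2, Cox7a1 and Cox8b lay below -25 on every array, as did Cox6b2 of testis, and BCSP arrays of Cox4i2 ran from -82.9 to 72.0.

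Different probe sets of a gene often disagreed. Of 81 genes, 48 had several probe sets, and the gap between the highest and the lowest mean of a gene had a median of 33.4 points, over 50 points in 15 genes and over 100 points in 4. Ndufb8 had the largest gap, 149.9 points: 1458404_at averaged 80.1, and 1448198_a_at, with -61.0, -72.5, -74.9 and -86.8 in SSCs and -63.5, -43.5, -70.7 and -85.3 in BCSPs, averaged -69.8. The others over 100 points were Ndufs4 (means of 60.4, 10.2, -0.93 and -68.4), Cox6c (38.5 and -66.7) and Uqcrq (63.7, 12.9, -8.46 and -36.8). Ndufc2 came next, with 17.6, 3.12, -0.91 and -67.1. In 5 genes one probe set was above 0 on all 8 arrays and another on none. Probe sets with no suffix, designed to match 1 transcript, had a median of means of -18.4 (81 probe sets). Those with suffix a, shared by transcripts of 1 gene, had 2.37 (37), those with suffix s, shared between genes or families, 7.47 (17), and those with suffix x, which hold probes that can match other sequences, -13.5 (29). Which exons the probes match was not tested.

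**Figure D4:**
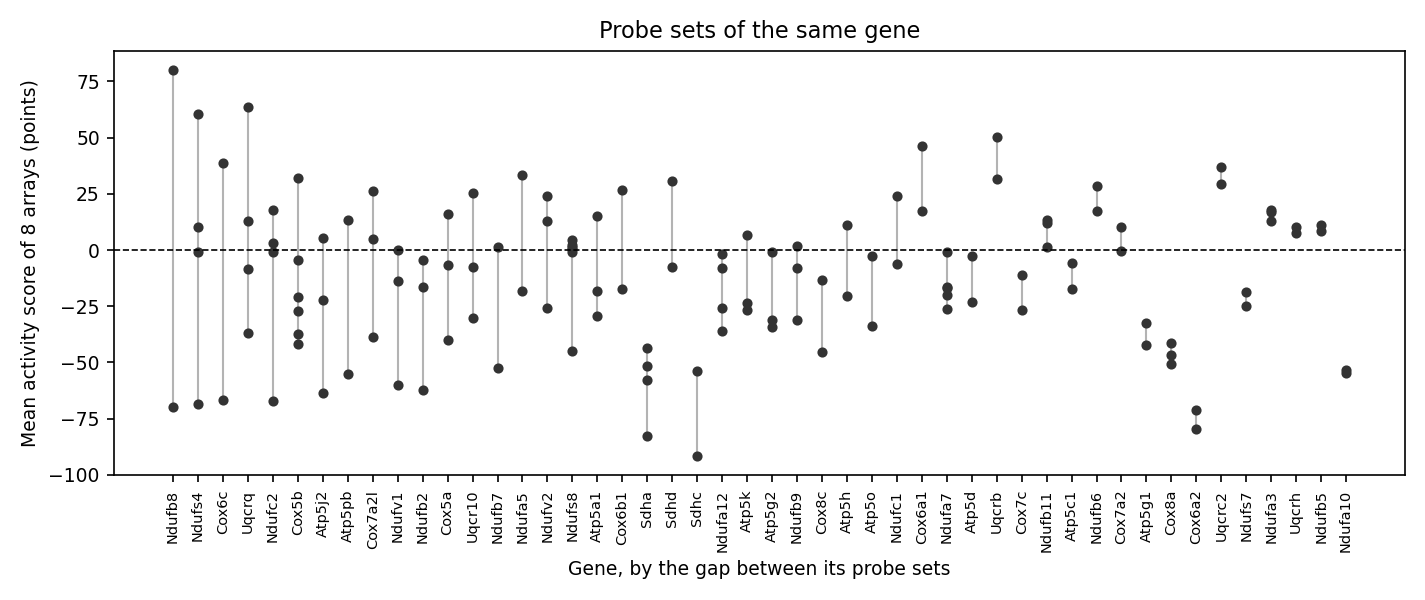
Mean activity score of 8 arrays (vertical axis, in points) of each probe set (points) of the 48 genes with several, joined by a line and ordered by the gap between the highest and the lowest. Ndufb8 at the left spans 149.9 points, while all probe sets of Sdha, Sdhc, Cox8a and Cox6a2 lie below the threshold.

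Promoters of the members were read because nuclear respiratory genes are known targets of a few factors: Nrf1, the ETS factor Gabpa, Yy1 and Esrra. RefSeq windows of 250 bases before to 50 after the start (build GRCm38.p6) were matched to 66 of 81 member genes, giving 71 windows, and were set beside all 32851 windows of the table, which include genes that encode no protein. Letters were searched on both strands. The Nrf1 letters CGCATGCG, a palindrome, were in 8 member windows (11.3%, against 1.87% of all windows), of Atp5g2, Atp5j, Atp5k, Atp5l, Cox6a1, Ndufa8, Uqcr11 and Uqcrc1. The Yy1 letters AAGATGGCG were in 6 (8.45% against 1.40%), the ETS letters ACTTCCGG in 5 (7.04% against 3.89%) and the Esrra letters TCAAGGTCA in 2, of Atp5g3 and Sdhd (2.82% against 0.423%). At least 1 of these 4 was in 19 windows (26.8%, against 7.21%). The Sp1 letters GGGGCGGGG (15.5% against 11.4%) and TATAAA (12.7% against 13.6%) were searched too. Member windows held a median of 19 CG pairs, against 7 in all windows, with a median GC content of 58.3% against 52.7%. Windows that are rich in CG hold letters with CG more often, and the counts were not corrected for this.

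The 150 bases before the start are shown for 5 member genes, picked as examples from those with such letters after the matches were seen (4 with the Nrf1 letters and 1 with the Esrra letters), 5′ to 3′ on the gene's strand, with the letters of any of the 6 searched motifs in capitals (cut where a match runs past the start):
Atp5g2 (chr15:102671048-102671197, - strand): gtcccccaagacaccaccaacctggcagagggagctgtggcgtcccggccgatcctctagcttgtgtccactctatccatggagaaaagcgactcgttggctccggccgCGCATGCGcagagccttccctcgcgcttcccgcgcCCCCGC
Atp5k (chr5:108434400-108434549, - strand): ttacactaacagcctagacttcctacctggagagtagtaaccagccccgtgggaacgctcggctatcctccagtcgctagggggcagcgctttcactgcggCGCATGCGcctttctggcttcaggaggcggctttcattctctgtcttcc
Ndufa8 (chr2:36049339-36049488, - strand): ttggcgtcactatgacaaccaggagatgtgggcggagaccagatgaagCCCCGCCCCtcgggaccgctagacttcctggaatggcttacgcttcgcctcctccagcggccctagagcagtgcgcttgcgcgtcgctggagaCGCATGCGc
Atp5j (chr16:84834977-84835126, - strand): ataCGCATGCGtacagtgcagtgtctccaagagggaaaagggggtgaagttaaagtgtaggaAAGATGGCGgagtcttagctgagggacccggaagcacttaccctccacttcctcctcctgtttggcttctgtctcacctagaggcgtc
Atp5g3 (chr2:73911327-73911476, - strand): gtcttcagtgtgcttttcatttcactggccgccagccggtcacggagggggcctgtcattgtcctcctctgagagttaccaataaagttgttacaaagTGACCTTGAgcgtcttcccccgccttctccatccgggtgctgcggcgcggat
In Atp5g2, Atp5k and Ndufa8 the Nrf1 letters began 41, 49 and 9 bases before the start. Atp5j carried them 147 bases before the downstream of its 2 starts, with the Yy1 letters 88 bases before it. The window of its upstream start held none of the letters. Atp5g3 carried the Esrra letters on the opposite strand from 52 bases before the start. Scores of these examples differed. Atp5j and Ndufa8 were above 0 on every array, with means over 8 arrays of 41.1 and 36.7, while the 3 probe sets of Atp5k averaged 6.63, -23.5 and -26.9.

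Of the regulators themselves, 10 of 37 probe sets were above 0 on all arrays and 22 on none. Gabpa had the highest mean of the list, 85.1, followed by Yy1 at 66.3. Nrf1 had 16.9, -15.1, -39.6 and -22.7 in SSCs against -27.9, -29.1, -26.7 and -22.7 in BCSPs at its highest probe set. Esrra and Ppargc1a, which drive respiratory genes in muscle and brown fat, were below 0 on all 8 arrays, with means of -62.4 and -52.1, and Mterf1a (-74.6) and Ppargc1b (-81.3) were the lowest of the list. In limma's comparison of SSC minus BCSP, 0 probe sets of this list had an adjusted p under 0.05 (0.0% of all probe sets). None had an unadjusted p under 0.05, where 1.22% of all probe sets were lower and 1.18% higher in SSCs. A list of 37 is too short to tell its share from these.

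The same window of 2 isoform pairs shows how the widely used and the muscle form differ in CG content:
Cox7a2 (chr9:79759854-79760003, - strand): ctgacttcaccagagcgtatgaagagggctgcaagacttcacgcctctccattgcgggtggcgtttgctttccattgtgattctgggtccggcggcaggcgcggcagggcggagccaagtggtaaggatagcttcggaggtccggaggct
Cox7a1 (chr7:30184021-30184170, + strand): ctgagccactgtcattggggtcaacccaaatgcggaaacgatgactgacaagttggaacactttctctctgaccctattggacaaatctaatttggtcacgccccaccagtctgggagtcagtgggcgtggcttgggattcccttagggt
Cox8a (chr19:7217617-7217766, - strand): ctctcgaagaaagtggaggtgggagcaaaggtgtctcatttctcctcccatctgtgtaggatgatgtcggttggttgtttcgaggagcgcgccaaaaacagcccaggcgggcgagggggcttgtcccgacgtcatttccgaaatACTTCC
Cox8b (chr7:140900447-140900596, - strand): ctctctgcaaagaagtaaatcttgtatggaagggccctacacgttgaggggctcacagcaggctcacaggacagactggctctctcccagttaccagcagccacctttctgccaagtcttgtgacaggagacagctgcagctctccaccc
The full windows held 20 CG pairs in Cox7a2 against 7 in Cox7a1, and 19 in Cox8a against 2 in Cox8b. Cox8a ends in the first letters of an ETS match that runs over the start. Cox8a and Cox8b were both below 0 on every array.

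SSCs were then compared with BCSPs by limma's moderated test over all 45037 probe sets. No member passed an adjusted p of 0.05, in either direction, and 0.0% of all probe sets did. At an unadjusted p under 0.05, 1 member was higher in SSCs and 0 were lower, against 1.18% and 1.22% of all probe sets. That 1 was probe set 1459760_at of Ndufs4, an accessory subunit whose loss causes a fatal encephalopathy in mice. It scored 1.29, 59.2, 1.19 and 34.6 in SSCs against -70.3, -15.5, -1.73 and -16.1 in BCSPs, and all 4 SSC arrays lay above all 4 BCSP arrays, which held for 0.653% of all probe sets. The difference was 49.98 points (95% interval 4.77 to 95.2, unadjusted p = 0.0337, limma adjusted p = 1). The other probe sets of Ndufs4 gave 1.46, -3.74 and -18.7 points, which differed in sign.

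Most members were nevertheless lower in SSCs in mean, by amounts within the spread of the arrays. The mean was lower in 136 of 164 probe sets (82.9%, against 53.0% of all probe sets), and the median difference was -8.13 points, against -0.61 over all probe sets. By complex, the mean was lower in SSCs for 64 of 72 probe sets of complex I (median -8.03 points), 5 of 9 of complex II (-1.62), 13 of 17 of complex III (-6.02), 28 of 35 of complex IV (-10.8) and 26 of 31 of complex V (-9.95). Complex II was thus near the background. In complex IV the smallest p belonged to Cox6a1, 36.6 ± 13.5 in SSCs and 55.7 ± 15.7 in BCSPs (SD, n = 4 each), a difference of -19.0 points (95% interval -42.3 to 4.203, limma adjusted p = 1). In complex III it belonged to Uqcrq, with -18.8 points (95% interval -45.0 to 7.43), in complex V to Atp5g3, with -18.7 points (-48.4 to 11.1), and in complex II to Sdhc 1435986_x_at, with 4.25 points (-6.20 to 14.7), all with an adjusted p of 1.

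With the replicate block, 0 members passed an adjusted p of 0.05 (0.0% of all probe sets). At an unadjusted p under 0.05, 5 were lower in SSCs (3.05%, against 2.74% of all probe sets), of Ndufa1, Ndufc2, Cox5b, Cox6a1 and Atp5j, and 1 was higher, Ndufs4 1459760_at (0.61%, against 2.3%). Arrays were then compared within experiments. The SSC array was below the BCSP array in all 4 experiments for 35 members (21.3%, against 7.24% of all probe sets) and above it in all 4 for 5 (3.05%, against 5.43%). Those 5 were Ndufa7 1422976_x_at, Ndufs4 1459760_at, Sdha 1433293_at, Sdhc 1435986_x_at and Cox6a2 1417607_at. The experiments did not contribute equally. The median difference of the members was -0.09 points in experiment 1, -17.8 in experiment 2, -1.96 in experiment 3 and -13.7 in experiment 4, and 83, 139, 98 and 123 of the 164 members were lower in SSCs. Over all probe sets the median differences were 0.84, -1.2, -0.86 and -1.3 points. The low experiment 2 was shared by other mitochondrial lists, which are described below. Medians there were -17.25 points for citric acid cycle enzymes, -17.37 for electron carriers and exchangers, -13.49 for mitochondrial ribosomal proteins and -9.18 for assembly factors. In experiment 4 the same lists had -0.44, -1.09, -7.53 and 0.43 points. Single arrays moved the median difference of the members by over 1.5 times. It was -3.04 points without the BCSP array of experiment 2, -3.17 without the SSC array of experiment 3 and -5.35 without the BCSP array of experiment 1. It was -12.9 without the SSC array of experiment 1 and -14.8 without the BCSP array of experiment 3. Leaving out both arrays of an experiment gave -10.9, -4.92, -10.2 and -7.29 for experiments 1 to 4. Endothelial markers were also lower in SSCs in mean, for 14 of their 16 probe sets (median difference -11.7 points), although Tie2-positive cells were excluded from both sorts. Their median differences were -11.4, -23.4, -21.7 and -3.91 points in experiments 1 to 4, beside -0.09, -17.8, -1.96 and -13.7 for the members. In level, all 16 were below 0 on every array, with array medians from -88.4 to -78.2 in SSCs and from -71.0 to -46.4 in BCSPs. The part of endothelial cells in the member differences was not tested.

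**Figure D5:**
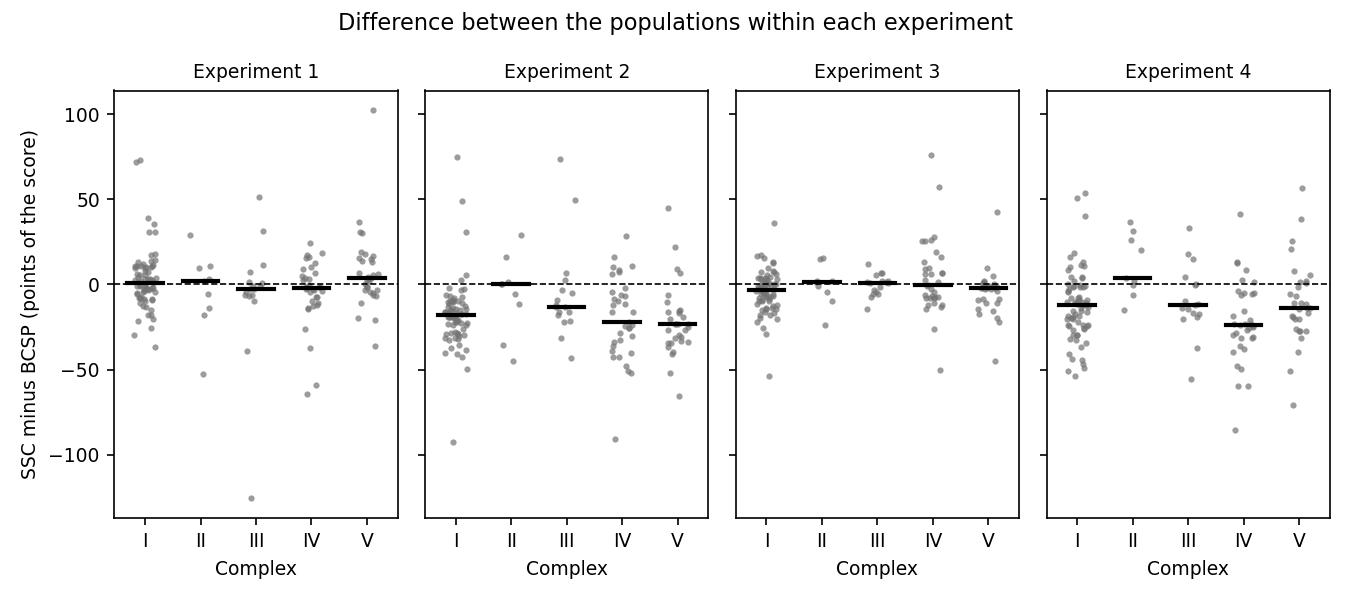
Difference of SSC minus BCSP (vertical axis, in points of the score) of each member probe set within each of the 4 experiments, by complex (horizontal axis), with a bar at the median. Medians of complexes I, III, IV and V lay below 0 in experiments 2 and 4 and near 0 in experiments 1 and 3.

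A few members were above the threshold throughout in 1 population only. In all, 10 probe sets were above 0 on all BCSP arrays but not on all SSC arrays (as were 1.97% of all probe sets), and 2 showed the reverse (2.27% of all), Ndufs4 1459760_at and Cox5b 1448514_at. Among the 10, Atp5g3 missed it in SSCs only in experiment 3 and Cox6c (38.5 in mean at 1434491_a_at) did likewise, with -1.74 there against 24.6 in the BCSP array of that experiment. Ndufb9 1436803_a_at was above 0 in 1 SSC array, with 24.8, -8.99, -7.81 and -34.2, against 23.6, 8.29, 0.63 and 6.74 in BCSPs. The groups overlapped for all of the 12 except Ndufs4.

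Most members had their lowest mean in experiment 3. The lowest of the 4 experiment means was that of experiment 3 for 110 members (67.1%, against 36.5% of all probe sets), and both arrays of experiment 3 lay below the other 6 for 81 (49.4%, against 13.9%). Both arrays of experiment 1 lay above the other 6 for 27 (16.5%, against 11.3%). Other mitochondrial lists were low in experiment 3 too. Medians of the means of experiments 1 to 4 were 5.715, 1.68, -35.6 and -14.1 for the members. They were -8.985, 7.39, -21.4 and -0.92 for assembly factors and 11.9, 7.92, -9.17 and -5.94 for mitochondrial ribosomal proteins. Regulators of mitochondrial biogenesis, at -51.1, -47.7, -41.8 and -45.2, were not lowest there. Of all members, 62 were lowest on the SSC array and 40 on the BCSP array of experiment 3, and 62 were highest on the BCSP array of experiment 2. Without experiment 3, 39 members (23.8%) were above 0 on all 6 arrays, against 17.9% of all probe sets, where 22 had been above 0 on all 8. The gap between the 3′ and 5′ control probe sets was largest in experiment 3 for actin but not for Gapdh, as given above, and its part in the low scores was not tested.

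In limma's moderated F test of the 4 experiments, adjusted over all probe sets, 0 members passed 0.05, against 0.995% of all probe sets. At an unadjusted p under 0.05, 61 members (37.2%) stood against 24.9% of all probe sets. Among the 83 members above 0 on 4 or more arrays, fitted with the probe sets that passed the same filter, 10 were called. That share was no higher than the 12.4% called of all probe sets fitted there (1668 of 13460). On an inverse normal scale 2 were called, Ndufa1 and Ndufs3 (2.26% of all), and after quantile normalization Ndufa1 alone (2.55%). Without experiment 3, 7.32% of the members had an unadjusted p under 0.05, against 12.6% of all probe sets. The shares were 11.6% against 15.3% without its BCSP array and 14.02% against 14.7% without its SSC array. In these fits the members did not stand above all probe sets. Experiment 3 was singled out because most members were lowest there, so a lower share of members without it is no independent result. Ndufa1 had the smallest adjusted p, 0.0656, with experiment means of 88.6, 74.1, 54.5 and 88.5. In complex III the smallest belonged to Uqcrb 1455997_a_at (adjusted p = 0.0748), with experiment means that were lowest in experiment 2. In complexes II, IV and V it belonged to probe sets that were highest, not lowest, in experiment 3. Sdha 1433293_at had -64.1, -65.4, -11.6 and -73.3 in SSCs against -93.3, -65.6, -13.7 and -75.1 in BCSPs (adjusted p = 0.0863). Cox5b 1436149_at had -98.2, -42.1, -12.4 and -36.1 in SSCs against -84.1, -50.3, 37.7 and -48.6 in BCSPs (adjusted p = 0.1003). Atp5c1 1438809_at, of the rotor's central stalk, had -67.5, -72.4, 55.0 and -54.4 in SSCs against -71.2, -7.19, 63.5 and 16.2 in BCSPs (adjusted p = 0.0944). The direction of experiment 3 was therefore not the same for all member probe sets, and it differed between probe sets of these genes. Atp5c1 1416058_s_at was lowest in experiment 3, with experiment means of 35.8, 1.235, -35.8 and -24.5. So were Sdha 1426688_at and Cox5b 1416902_a_at, 1435613_x_at, 1454716_x_at and 1456588_x_at. Sdha 1433292_at was highest there, and Sdha 1426689_s_at and Cox5b 1448514_at were neither.

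Other mitochondrial lists were set beside the subunits. Mitochondrial ribosomal proteins, which make the subunits encoded in the organelle, had 43 of 156 probe sets above 0 on all 8 arrays and 35 on none. Mrpl27 and Mrpl48 were the highest genes (means of 94.3 and 93.8), and Mrps11 and Mrps27 the lowest (-62.9 and -68.3). Their mean was lower in SSCs for 105 of 156 probe sets, with a median difference of -3.66 points. Assembly factors of the chain had 9 of 66 probe sets above 0 on all arrays and 17 on none, from Bcs1l and Ttc19 of complex III (65.4 and 60.5) to Ecsit and Tmem126b of complex I (-86.6 and -88.8), with a median difference of -0.88 points. Citric acid cycle enzymes had 1 of 38 above 0 on all arrays, Sucla2 (24.1), and 21 on none. Idh2 followed at 23.6, and citrate synthase (Cs, -38.0) and fumarase (Fh1, -63.3) were the lowest. Electron carriers and exchangers had 11 of 44 on all arrays, led by the ADP/ATP carrier Slc25a4 (66.8) and the outer membrane channel Vdac3 (57.3), with Coq5 and Etfb lowest (-61.0 and -78.9).

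Genes that limit or reroute mitochondrial respiration at low oxygen scored high in the same arrays. Of 22 probe sets of this list, 14 were above 0 on all 8 arrays and 3 stayed below it throughout. Array medians ran from 57.3 to 78.1 in SSCs and from 49.3 to 79.7 in BCSPs. Higd1a, a respiratory chain regulator induced by hypoxia, averaged 99.96, and Bnip3, a mitophagy receptor, 98.9, while Mxi1 and Lonp1 were lowest (25.3 and -12.7). Ndufa4l2, a hypoxia-induced relative of Ndufa4, scored 46.7, 88.4, 44.1 and 80.4 in SSCs against 67.3, 92.7, 39.0 and 68.6 in BCSPs. Ndufa4 itself had a mean of -11.0. Defence against reactive oxygen had 4 of 19 probe sets above 0 on all arrays and 7 on none, with Glrx2 and Txnrd2 highest (86.2 and 60.7), Gpx1 and Prdx3 lowest (-33.9 and -45.1), and a median difference of -7.56 points. No probe set of these lists had a limma adjusted p under 0.05 for SSC minus BCSP (0.0% of all probe sets). At an unadjusted p under 0.05 stood 1, 1460225_at of Mrpl57, which was higher in SSCs by 53.4 points. Of all probe sets, 1.18% were higher and 1.22% lower in SSCs at that threshold. Mrpl57 1418137_at was lower in SSCs in all 4 experiments. In the F test of the experiments, 5 of the 345 probe sets of these 6 lists had an adjusted p under 0.05 (1.45%, near the 0.995% of all probe sets), and 115 an unadjusted p under 0.05 (33.3%, against 24.9%). The 5 were Mrpl57 1418137_at, Mrps14, Mrps16, Mrpl17 and the lactate dehydrogenase gene Ldha. All 5 were lowest in experiment 3, with Ldha at 81.9, 79.7, 36.3 and 92.7 in SSCs and 80.2, 88.9, 30.7 and 77.7 in BCSPs (limma adjusted p = 0.0471).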

How the data were processed

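RNA of each sorted population was amplified in 2 rounds per the study's methods and hybridized to Affymetrix mouse arrays. The values deposited by the authors are activity scores (unit: score) from Gene Expression Commons, which normalizes an array against public arrays and sets a threshold for each probe set. The sources used here do not state how probes were summarised. The value table held 45101 probe sets with scores from -100.03 to 100.0, and 64 control probe sets were left out of the tests. Names came from the platform annotation: 34945 probe sets had 1 symbol, 932 several and 9160 none listed.

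Scores were used as deposited, with no log scale and no fold change. SSC minus BCSP was fitted over 8 arrays with lmFit and trended eBayes of limma (version 3.58.1, R 4.3.3), and experiments by the F test of 3 terms beside population, with Benjamini-Hochberg adjustment over all 45037 probe sets and a threshold of 0.05. The fits were tested on simulated data with a spread smaller than that of the arrays. At the arrays' own spread the tests had little power to pass the adjusted threshold, so a count of 0 called does not show that scores did not differ. The study names different mice as the source of the cells but ties none to an array, so p-values measure the spread between these arrays. The label of 1 BCSP array gives 2 numbers, and its description was used. Arrays of 1 number came from 1 experiment and deviated together (correlations of deviations from the group means of 0.394, 0.164, 0.605 and 0.173 over all probe sets), so a fit with the replicate block was also run. Alternatives were normalization, filters, 1 probe set per gene, the methods' t-test and leaving out arrays. The number of arrays limits precision.

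The members and lists were chosen with earlier results of these data known. Named were, in each complex, the probe sets with the highest and lowest mean and the smallest p of each test, every paralogous isoform gene, the 5 genes whose probe sets differed most and, of each other list, the 2 highest and 2 lowest genes. Other genes were named after their values were seen. Promoter windows came from RefSeq (GRCm38.p6). Proteins were not used here.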

Additional observations from a re-analysis of the deposited data

Results flagged for a closer look

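Among 122 groups of 4 arrays tested (the probe sets named by rule and the complex medians, in each population), 8 held an array set apart from the other 3 by a gap that Dixon's test places beyond its 95% limit. Chance gives about 1 such group in 20. Of the 8, 5 were arrays of experiment 3. In SSCs, Cox6a1 1417418_s_at was at -17.87 in experiment 3 against 19.5 to 24.3 on the others. Sdha 1433293_at was at -11.62 and Atp5c1 1438809_at at 55.02 in experiment 3, against -73.3 to -64.1 and -72.4 to -54.4. Both had been named for the smallest p between experiments, so an array of experiment 3 set apart was part of their choice and cannot be read against chance. In BCSPs, Cox8a 1416112_at was at -57.55 in experiment 3 against -40.7 to -37.6, and Uqcrq 1430326_s_at at -21.65 against 22.2 to 27.8. Outside experiment 3, Cox4i2 was at 12.81 in SSCs of experiment 1 against -6.93 to -4.01. Atp5g2 1447714_x_at was at -83.77 in BCSPs of experiment 2 against -31.9 to -22.4, and Ndufb8 1458404_at at 86.2 in BCSPs of experiment 4 against 82.4 to 82.6.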

How the results depend on the processing

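The count of members called for SSC minus BCSP stayed at 0 under every alternative run, the replicate block, the methods' t-test and leaving out each array (0 to 0) included. With the replicate block 6 members had an unadjusted p under 0.05 (1 without it, and 1 by the methods' t-test), and it changed no call. The share of members lower in SSCs ran from 64.6% to 87.2% when 1 array was left out, and the median difference from -14.8 to -3.04 points. For the experiments, the count of members called, 0 as reported, was 10 of 83 after a filter for scores above 0 on 4 or more arrays (12.4% of all tested), 2 on an inverse normal scale, Ndufa1 and Ndufs3 (2.26%), and 1 after quantile normalization, Ndufa1 (2.55%). It was 0 under the other settings, leaving out each array included (0 to 0). The share of members above 0 on every array was 13.4% as reported, 23.5% with 1 probe set per gene and 23.8% without experiment 3, and 13.4% to 15.9% without 1 array. The median over 8 arrays of complex II was -43.0 as reported, -17.5 with 1 probe set per gene and -30.6 with probe sets averaged per gene. That of complex IV was -22.0, -2.35 with 1 probe set per gene and -44.3 without suffixed probe sets, and that of complex V was -19.9 and 5.42 with 1 probe set per gene. The inverse normal scale gives no median difference in points. The differences of the 5 probe sets with the smallest p in their complex kept their sign in all settings run. Of all members, 4 turned sign after centring on array medians, 7 after quantile normalization and 10 to 37 when 1 array was left out. Leaving out both arrays of an experiment, and the block with quantile normalization, were chosen after seeing the data.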
